A study of Homo sapiens with 46 samples.

Results

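The genes described here are HNRNPA0, HNRNPA1, HNRNPA2B1, HNRNPA3, HNRNPC, HNRNPD, HNRNPH1, HNRNPK, HNRNPL and HNRNPU, 10 of the 21071 gene symbols in the study's count tables. Every row carrying one of these symbols was taken from 4 tables, each built on the transcript assembly of 1 cell type, and each row is 1 assembled isoform. There were 45 such isoforms among 32819 in human pluripotent stem cells (hPSC), 45 among 54325 in ectoderm, 47 among 30409 in endoderm and 49 among 36407 in mesoderm. Of these, 38, 38, 32 and 37 carry an Ensembl transcript number, and the others (called unlisted below) are known by their assembly name only. After the filter on low counts 44, 43, 44 and 49 isoforms were tested. The hPSC are the established line H1, grown on Matrigel in mTeSR1, and the other cell types were made from them in culture over 5 days. Ectoderm received A83-01, PNU-74654 and dorsomorphin, each at 2 µM, with 15% KOSR. Endoderm received WNT3A at 50 nM/ml (the unit as labelled) and activin A at 100 ng/ml with 0.5% FBS. Mesoderm received VEGF and BMP4 at 100 ng/ml each and bFGF at 10 ng/ml with 0.5% FBS, and activin A at 100 ng/ml during the first 24 h only. Total RNA was sequenced from cytoplasm, nucleus, nucleoplasm and chromatin, with 3 libraries per group except for 1 mesoderm nucleoplasm library, and α-amanitin was in the fractionation buffers of all groups. All cell types derive from 1 line, and the labels do not say whether libraries of a group came from separate cultures, so the p-values measure the spread between these libraries only.

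Heterogeneous nuclear ribonucleoproteins bind nascent RNA, take part in its splicing, polyadenylation and export, and stay with it in the nucleus or shuttle with it to the cytoplasm. HNRNPA0, HNRNPA1, HNRNPA2B1 and HNRNPA3 form the A/B group, with paired RNA recognition motifs and a glycine-rich tail. HNRNPC binds uridine tracts and stays nuclear, HNRNPD (AUF1) binds AU-rich elements and affects mRNA decay, and HNRNPH1 binds runs of guanines. HNRNPK binds cytidine-rich stretches through KH domains, HNRNPL binds CA repeats, and HNRNPU (scaffold attachment factor A) binds RNA and chromatin. Several of these genes are known to splice their own pre-mRNA in alternative forms, among them transcripts that keep an intron or are marked for nonsense-mediated decay, and such forms are a known route by which RNA-binding proteins limit their own level.

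The proteins of HNRNPC and HNRNPD differ by coding segments whose length is a multiple of 3 bases, and these segments are shown because they separate the isoforms whose shares are given below. Each was read in the sense of its gene from GRCh38 with GENCODE release 29 exon structures.
HNRNPC segment of 39 bases (chr14:21230958-21230996, minus strand), in ENST00000554455 and ENST00000557201 and absent from ENST00000553300 and ENST00000554969: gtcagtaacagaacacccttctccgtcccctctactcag
HNRNPD segment of 57 bases (chr4:82371528-82371584, minus strand), absent from ENST00000352301: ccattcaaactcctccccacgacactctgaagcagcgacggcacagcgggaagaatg
HNRNPD segment of 147 bases (chr4:82356537-82356683, minus strand), absent from ENST00000353341: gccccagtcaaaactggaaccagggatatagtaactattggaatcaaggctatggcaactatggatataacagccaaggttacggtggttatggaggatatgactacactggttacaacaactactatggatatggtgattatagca
The segments encode 13, 19 and 49 codons in that order. The protein with the HNRNPC segment is known as C2 and the shorter one as C1, and the 4 combinations of the HNRNPD segments are known as the AUF1 isoforms. Of the 58 distinct Ensembl transcripts listed for the 10 genes, 40 are in this release, so the segment content of the others and of unlisted isoforms was not used.

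Library totals ran from 4990408 to 21298678 counts, and 3 counts, taken here as the floor of detection, are worth 0.137 to 0.461 CPM (counts scaled to a common library size). Markers fixed for each cell type were highest in that cell type's cytoplasm for 4 of 5 hPSC, 5 of 5 ectoderm, 5 of 5 endoderm and 2 of 6 mesoderm genes. Fractions were checked with fixed lists of 6 RNAs taken as nuclear and 6 mRNAs taken as cytoplasmic. The nuclear list was MALAT1, NEAT1, KCNQ1OT1, SNHG14, MEG3 and GAS5. The cytoplasmic list was RPLP0, EEF1A1, ACTB, GAPDH, TUBA1B and RPS3. Whether each RNA, GAS5 among them, keeps to that place in these cells was not tested. In ectoderm, 5 of the 6 nuclear RNAs were higher in cytoplasm than in nucleus and 0 were lower (MALAT1 by 3.04 and NEAT1 by 2.55 on the log2 scale), while 0 of the 6 cytoplasmic mRNAs were higher and 3 were lower. The libraries labelled ectoderm cytoplasm and ectoderm nucleus thus went against their labels on these genes, and every ectoderm value of cytoplasm against nucleus rests on them. In hPSC the 6 cytoplasmic mRNAs were higher in cytoplasm, but so were 3 of 5 tested nuclear RNAs, MALAT1 by 1.44. In endoderm and mesoderm 4 and 6 of the cytoplasmic mRNAs were higher in cytoplasm, 1 nuclear RNA in each was higher, and 2 and 3 were lower. On chromatin against cytoplasm, the 6 cytoplasmic mRNAs were lower in every cell type. The nuclear RNAs were 1 higher and 2 lower in hPSC (median -0.33), 2 and 3 in ectoderm (-0.29), 5 and 0 in endoderm (1.98) and 4 and 0 in mesoderm (1.74). The hPSC and ectoderm chromatin values of the members rest on the same libraries. The mitochondrial share of counts was lower in cytoplasm than in nucleus in hPSC, ectoderm and endoderm (13.9% in hPSC nucleus and 0.515% in cytoplasm), and the other way round in mesoderm (6.79% in cytoplasm and 1.26% in nucleus). Mesoderm chromatin replicate 3 stood apart from its group for several members, with HNRNPK at 318, 242 and 571 CPM and HNRNPU at 536, 605 and 917 in the 3 libraries. The part of these differences between libraries in the results was not tested.

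Levels per length (TPM, transcripts scaled to a fixed library sum, summed over a gene's isoforms) placed HNRNPA1 far above the other members in every cytoplasm. In hPSC cytoplasm it had 3158 TPM, followed by HNRNPC (649), HNRNPA2B1 (582), HNRNPD (561), HNRNPA3 (356), HNRNPK (339), HNRNPL (298), HNRNPU (203), HNRNPH1 (195) and HNRNPA0 (130 TPM). The ranges over the 3 libraries overlapped for HNRNPA2B1 with both HNRNPC and HNRNPD, and for each neighbouring pair from HNRNPA3 down to HNRNPA0. HNRNPA1 and HNRNPC held the first and second place in all 4 cell types. HNRNPA3 was in the middle of the order in hPSC cytoplasm, at 356 TPM, but last in ectoderm at 132 and in endoderm at 123 TPM. This order depends on the length each assembly gives its isoforms: the main HNRNPA3 isoform, ENST00000392524, has an implied length of 1410 bases in the hPSC tables and 6190 in the endoderm tables.

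The first question the design raises is how each gene as a whole divides between fractions. A gene's counts were summed over its isoforms, scaled by edgeR's TMM factors to CPM and compared with edgeR's quasi-likelihood test, adjusted over all genes by the Benjamini-Hochberg method. Members called higher or lower below have an adjusted p under 0.05. In cytoplasm against nucleus, 8 of the 10 genes were higher and 0 lower in hPSC, 5 higher and 1 lower in ectoderm, 8 and 0 in endoderm, and 4 and 0 in mesoderm. Among all genes tested, 65.4%, 53.8%, 69.8% and 63.3% were called in these comparisons, 35.1%, 27.3%, 34.3% and 31.9% higher and 30.4%, 26.6%, 35.5% and 31.5% lower. The median log2 change of the 10 genes was 0.66, 0.26, 1.02 and 0.41, beside medians of 0.10, 0.01, 0.01 and 0.00 over all genes. For the 20 other hnRNP family genes (among them HNRNPM, HNRNPF and PTBP1), 16, 8, 14 and 9 were higher and 0, 3, 0 and 1 lower. The scaling changes these counts: on log2(TPM + 1) with limma, 5, 5, 9 and 1 members were higher and 0, 0, 0 and 4 lower. That scale moved all genes as well: their medians were -0.19, 0.17, 0.28 and -0.82, and 33.9%, 75.6%, 62.9% and 10.6% of all called genes were higher. With library totals in place of TMM the members' counts were 8 and 0, 7 and 0, 10 and 0, and 3 and 0. Of all genes called with library totals, 56.9%, 76.4%, 71.5% and 45.2% were higher.

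**Figure D1:**
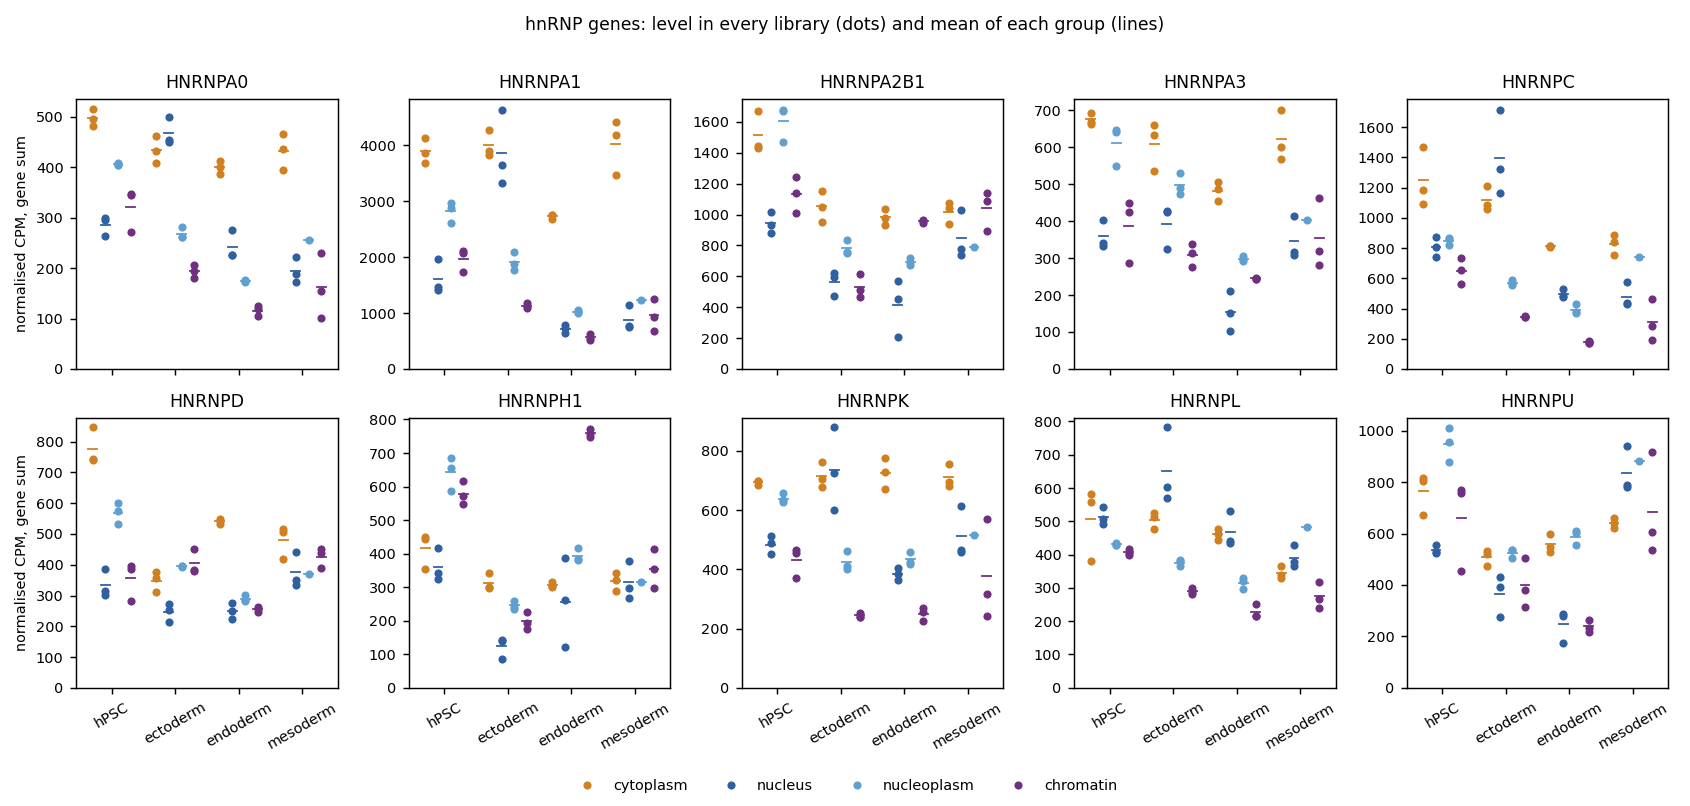
Normalised CPM of each gene (y axis) by cell type and fraction (x axis), 1 dot per library with the group mean as a line. HNRNPA1 cytoplasm libraries of endoderm, at 2686 to 2760 CPM, lie far above its nucleus libraries, at 645 to 781 CPM, while HNRNPH1 chromatin libraries of endoderm, at 749 to 772 CPM, are its highest.

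HNRNPA1, whose protein is the best studied shuttling member of the A/B group, had the widest cytoplasmic excess outside ectoderm. Its endoderm libraries gave 2760, 2749 and 2686 CPM in cytoplasm, 645, 781 and 739 in nucleus, 1012, 1049 and 998 in nucleoplasm and 561, 619 and 525 on chromatin. Cytoplasm was thus above every other fraction with no overlap, and the log2 change against nucleus was 1.92 (SE 0.16, adjusted p = 7.5e-08). In mesoderm the cytoplasm libraries gave 3463, 4417 and 4193 CPM and the nucleus libraries 773, 1136 and 742, a change of 2.19 (SE 0.29, adjusted p = 7.2e-05). In hPSC, 4126, 3871 and 3688 CPM in cytoplasm stood against 1974, 1404 and 1467 in nucleus, a change of 1.27 (SE 0.15, adjusted p = 9.0e-06). In ectoderm the fractions overlapped, at 3906, 3829 and 4272 CPM in cytoplasm and 3320, 4630 and 3657 in nucleus, and the change was 0.05 (SE 0.15, adjusted p = 0.80).

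The other A/B genes, where called, were also higher in cytoplasm. HNRNPA3 was higher in cytoplasm in all 4 cell types, the changes being 0.91 (hPSC), 0.64 (ectoderm), 1.64 (endoderm) and 0.85 (mesoderm) (edgeR adjusted p from 4.0e-06 to 0.0051), although the mesoderm change was -0.40 on the TPM scale. HNRNPA0, an intronless gene, was higher in hPSC (0.80), endoderm (0.72) and mesoderm (1.15), and its ectoderm change of -0.11 did not pass. HNRNPA2B1, which binds RNA sorted for transport, was higher in hPSC (0.68), ectoderm (0.90) and endoderm (1.25). Its mesoderm libraries overlapped, with 936, 1075 and 1042 CPM in cytoplasm and 774, 1027 and 740 in nucleus, a change of 0.26 that did not pass and was -0.90 on the TPM scale.

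HNRNPC was higher in cytoplasm in hPSC (0.63), endoderm (0.71) and mesoderm (0.79, edgeR adjusted p = 0.028). The mesoderm call ended when nucleus replicate 1 or 3 or cytoplasm replicate 2 or 3 was left out (0.68 to 0.78) and its value was -0.31 on the TPM scale. HNRNPD was higher in hPSC by 1.22 (SE 0.15, adjusted p = 9.2e-06), with 847, 739 and 745 CPM in cytoplasm and 386, 301 and 316 in nucleus. It was also higher in endoderm by 1.12 and in ectoderm by 0.49, and its mesoderm change of 0.35 (SE 0.17, adjusted p = 0.096) did not pass. HNRNPK was higher in hPSC by 0.52 and in endoderm by 0.92 and did not pass in ectoderm (-0.04) or mesoderm (0.47).

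By TMM, HNRNPH1, HNRNPL and HNRNPU stood nearest to an even division or differed in direction between cell types. The HNRNPL changes of -0.02 (hPSC), -0.02 (endoderm) and -0.18 (mesoderm) did not pass. The endoderm value turned positive with library totals. Mean TPM in mesoderm cytoplasm and nucleus was 195 and 484 for HNRNPL and 178 and 487 for HNRNPU. The median change over all genes was -0.82 on that scale. In ectoderm HNRNPL was lower in cytoplasm by -0.37 (SE 0.12, adjusted p = 0.02), a call that ended without nucleus replicate 2 (-0.15) or without cytoplasm replicate 1 or 3. HNRNPH1 did not pass in hPSC (0.21), endoderm (0.26) or mesoderm (0.02), and its mesoderm change was -1.12 on the TPM scale. Its endoderm nucleus libraries were spread over 120, 386 and 263 CPM around cytoplasm values of 302, 316 and 303, and without nucleus replicate 2 the change was 0.70 (adjusted p = 0.018, edgeR). In ectoderm HNRNPH1 had 300.4, 299 and 341 CPM in cytoplasm and 141, 87 and 143 in nucleus, a change of 1.34 (SE 0.17, adjusted p = 2.6e-05). HNRNPU was higher in cytoplasm in endoderm by 1.18, with 546, 599 and 530 CPM against 176, 288 and 278. In mesoderm its change was -0.39 (SE 0.22, adjusted p = 0.14), with 623, 659 and 639 CPM in cytoplasm and 788, 943 and 782 in nucleus, groups that did not overlap. Its hPSC change of 0.51 (adjusted p = 0.019) was lost without nucleus replicate 3 or cytoplasm replicate 2 or 3 (0.46 to 0.50), and its ectoderm change of 0.47 (adjusted p = 0.038) without any of 5 libraries (0.37 to 0.53).

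**Figure D2:**
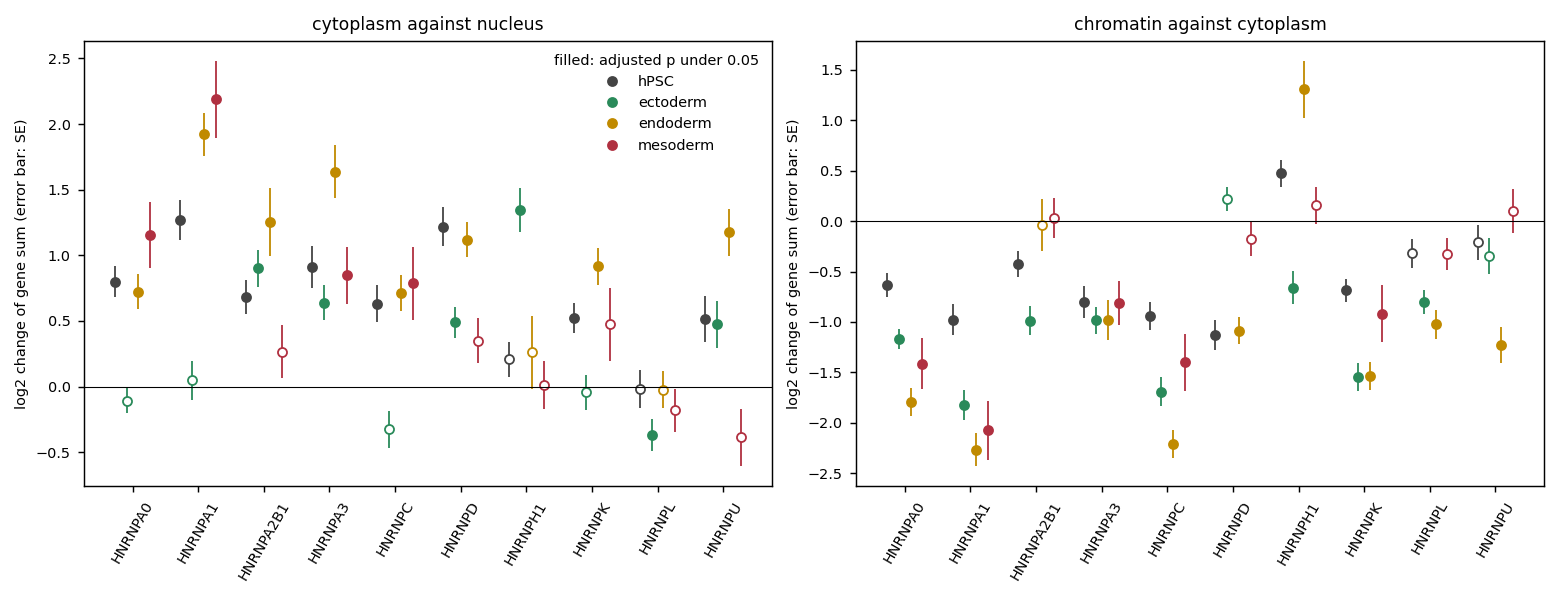
Log2 change with its standard error (y axis) of each gene's summed counts (genes on the x axis), by cell type. The panels are cytoplasm against nucleus and chromatin against cytoplasm. Filled points have an edgeR adjusted p under 0.05. HNRNPH1 on chromatin is above 0 in endoderm, at 1.31, and HNRNPA1 is below 0 in all 4 cell types, from -0.98 to -2.26.

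The second question is what remains on chromatin. This comparison shares the cytoplasm libraries with the one above, so the pair are not independent. Against cytoplasm, 1 gene was higher on chromatin and 7 lower in hPSC, 0 and 8 in ectoderm, 1 and 8 in endoderm and 0 and 5 in mesoderm, beside 63.5%, 60.9%, 73% and 66.4% of all genes called, 35.2%, 29.1%, 37.7% and 33.9% of them higher and 28.3%, 31.8%, 35.3% and 32.5% lower as shares of all tested. On the TPM scale the members' splits were 3 and 0, 2 and 3, 1 and 7, and 4 and 1, beside 90.7%, 92.1%, 63.3% and 88.8% of all genes called that were higher on that scale. Of the genes called by TMM, the TPM scale changed the sign of 3 of 8 (hPSC), 3 of 8 (ectoderm), 0 of 9 (endoderm) and 2 of 5 (mesoderm). HNRNPA1 was lower on chromatin in every cell type by TMM, by 0.98 to 2.26. HNRNPC fell by 2.21 in endoderm (SE 0.14, adjusted p = 4.2e-09), with 810, 814 and 812 CPM in cytoplasm and 172, 185 and 170 on chromatin. HNRNPA0 and HNRNPK were also called lower in all 4 cell types, but on the TPM scale HNRNPA0 and HNRNPK turned to 0.25 and 0.13 in hPSC and HNRNPK to 0.018 in mesoderm. HNRNPA3 was called lower throughout as well, and turned to 0.13 in ectoderm and 0.44 in mesoderm. HNRNPA2B1 in hPSC (-0.42) and HNRNPL in ectoderm (-0.80) likewise turned to 0.30 and 0.23.

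HNRNPH1 was the only member called higher on chromatin. Its endoderm chromatin libraries gave 772, 749 and 757 CPM, nucleoplasm 416, 381 and 385, and cytoplasm 302, 316 and 303. The order chromatin, nucleoplasm, cytoplasm held with no overlap, and chromatin was above cytoplasm by 1.31 (SE 0.28, adjusted p = 0.00070). In hPSC the libraries gave 573, 547 and 617 CPM on chromatin and 355, 451 and 443 in cytoplasm, a change of 0.48 (SE 0.13, adjusted p = 0.0073). In ectoderm HNRNPH1 was instead lower on chromatin, by -0.66, a value that turned to 0.45 on the TPM scale and to 0.32 in the counts of the combined assembly. HNRNPA2B1 in endoderm had nearly equal chromatin and cytoplasm values, 944, 961 and 962 against 977, 1038 and 930 CPM. Without mesoderm chromatin replicate 3, 6 genes passed in mesoderm in place of 5, HNRNPL joining at -0.44 (adjusted p = 0.013). The 5 others then ran from -2.32 (HNRNPA1) to -1.05 (HNRNPA3), in place of -2.07 to -0.81, and HNRNPK moved from -0.92 to -1.35. HNRNPU, which passed in neither fit, moved from 0.10 to -0.17 (edgeR adjusted p = 0.36).

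The third question is which isoforms make up these sums. In cytoplasm against nucleus, 20 isoforms were higher and 6 lower in hPSC, 4 and 0 in ectoderm, 22 and 6 in endoderm, and 11 and 7 in mesoderm. Over all isoforms tested, 39.7%, 13.7%, 42.1% and 32% were called, 19.6%, 7.03%, 19.3% and 15.3% of them higher and 20%, 6.62%, 22.9% and 16.8% lower as shares of all tested. On the TPM scale the splits were 13 and 7, 8 and 0, 22 and 4, and 2 and 18, beside 29.5%, 69.9%, 53.5% and 8.55% of all called isoforms higher. With library totals they were 20 and 6, 11 and 0, 24 and 4, and 6 and 8. Of all isoforms called with library totals, 50.8%, 75.1%, 60.6% and 32.0% were higher. DESeq2 called 12 higher and 3 lower in ectoderm, beside 5784 higher and 5028 lower of all 41262 isoforms it tested. In 4 genes of hPSC, 4 of endoderm and 3 of mesoderm, isoforms of the same gene were called in opposite directions. Such genes were not counted outside the members, so this may not be particular to them. Split by annotation, hPSC had 14 of 24 protein-coding isoforms higher and 1 lower, ectoderm 3 of 24 and 0, endoderm 15 of 22 and 0, and mesoderm 5 of 23 and 1. For unlisted isoforms, hPSC had 4 of 7 higher and 1 lower, ectoderm 0 of 7 and 0, endoderm 4 of 13 and 5, and mesoderm 3 of 12 and 3. The classes were not compared over all isoforms. RSEM, named in the submitters' processing notes, divides reads between near-identical isoforms, so isoform values are less certain than gene sums, and HNRNPA1, HNRNPA3, HNRNPC and HNRNPK also have processed pseudogenes that can share their reads. Where a level changes in bulk RNA, fewer cells with the RNA and less RNA per cell cannot be told apart.

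HNRNPH1 had an unlisted isoform with a low share in cytoplasm in endoderm and in hPSC. In endoderm the unlisted isoform END.4479.5, with an implied length of 4981 bases, gave 28.8, 38.3 and 25.8 CPM in cytoplasm, 72.7, 217 and 180 in nucleus, 214, 159 and 182 in nucleoplasm and 557, 571 and 555 on chromatin. Each step from cytoplasm to nucleus to chromatin was without overlap. It made up 4.13% of the gene's TPM in cytoplasm, 44.4% in nucleus, 26.5% in the soluble nucleoplasm and 65.9% on chromatin. The change was -2.33 in cytoplasm against nucleus (SE 0.34, adjusted p = 0.00027), 4.18 on chromatin against cytoplasm (SE 0.37, adjusted p = 6.6e-06) and 1.60 on chromatin against nucleoplasm (SE 0.33, adjusted p = 0.0042). All unlisted HNRNPH1 isoforms together made up 19.3%, 70.1%, 49.1% and 92.9% of the gene in these fractions.

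In hPSC an unlisted HNRNPH1 isoform with an implied length of 5031 bases was also lower in cytoplasm than in nucleus and higher on chromatin than in cytoplasm. ESC.5023.3 gave 55.0, 57.6 and 64.8 CPM in cytoplasm, 183, 261 and 196 in nucleus, 271, 285 and 249 in nucleoplasm and 341, 323 and 464 on chromatin. Cytoplasm held it at a share of 6.64%, nucleus at 38.6%, nucleoplasm at 23.9% and chromatin at 47.1%, with a change of -1.85 in cytoplasm against nucleus (SE 0.17, adjusted p = 2.2e-05) and 2.67 on chromatin against cytoplasm (SE 0.18, adjusted p = 4.7e-06). Its chromatin value did not pass against nucleoplasm (0.49, adjusted p = 0.098). Whether ESC.5023.3 and END.4479.5 are 1 transcript cannot be told from their names.

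The protein-coding HNRNPH1 isoforms ENST00000393432 and ENST00000442819 went the other way. In hPSC ENST00000393432 had 197, 286 and 271 CPM in cytoplasm and 92.9, 108 and 97.1 in nucleus, a change of 1.34 (SE 0.18, adjusted p = 0.00027), and 63.4% of the gene's TPM in cytoplasm against 41.6% in nucleus. ENST00000442819 changed by the same 1.34 (SE 0.29, adjusted p = 0.0042). In ectoderm these isoforms were higher in cytoplasm by 1.43 (SE 0.20, adjusted p = 0.0012) and 1.27 (SE 0.30, adjusted p = 0.02). The second of these calls was lost without nucleus replicate 1 or 2 or cytoplasm replicate 1 or 3 (1.09 to 1.33). In mesoderm both isoforms held like shares in every fraction, ENST00000393432 between 58.1% and 66.9%. Its mesoderm change of 0.24 did not pass and was -1.13 on the TPM scale. In endoderm ENST00000393432 had 0 counts in every nucleus library. Both coding isoforms lie at chr5:179614178-179623721 on the minus strand and have the same coding length of 1347 bases.

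**Figure D3:**
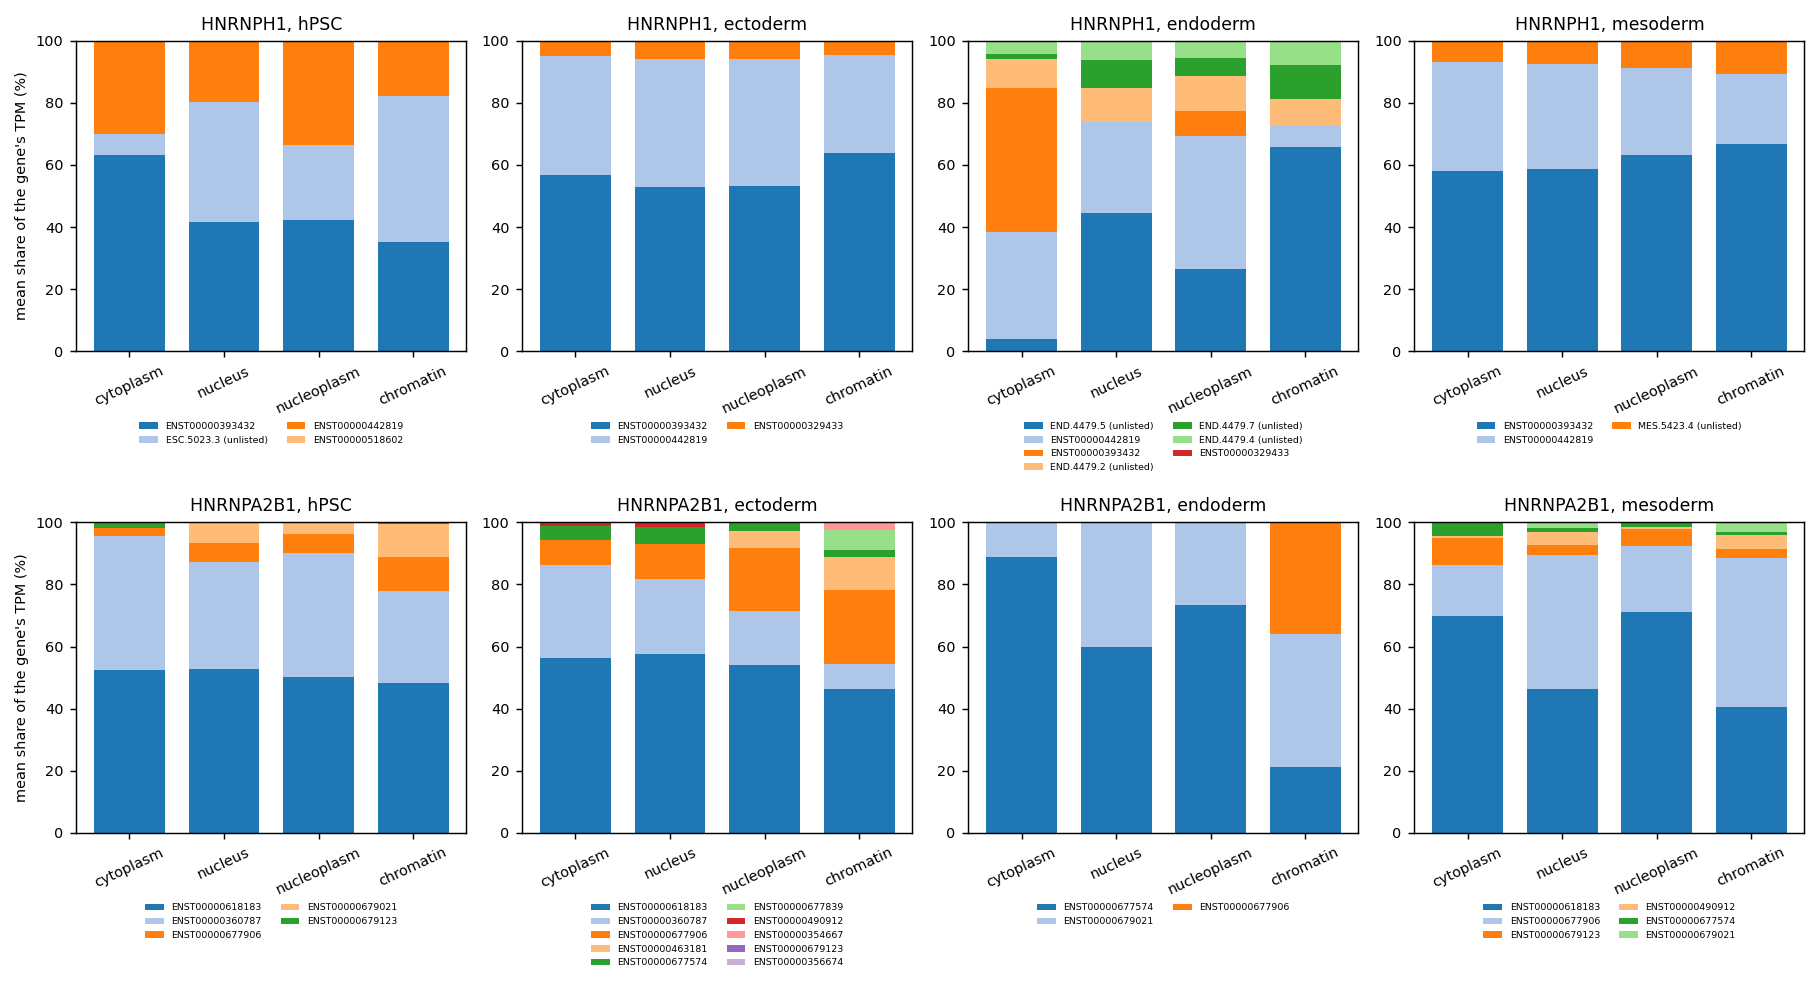
Mean share of the gene's TPM in percent (y axis) taken by each isoform (colours) in each fraction (x axis) for HNRNPH1 and HNRNPA2B1 in the 4 cell types. The endoderm HNRNPH1 bar changes from 4.13% END.4479.5 in cytoplasm to 65.9% on chromatin, while the mesoderm HNRNPH1 bars keep ENST00000393432 between 58.1% and 66.9%.

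HNRNPA1 combined a large cytoplasmic excess of its main isoforms with nuclear minor ones. In endoderm the unlisted END.8910.5 gave 2516, 2365 and 2363 CPM in cytoplasm, 431, 505 and 462 in nucleus and 145, 152 and 139 on chromatin. It made up 78.6% of HNRNPA1 in cytoplasm and 33.6% on chromatin, with changes of 2.37 (SE 0.11, adjusted p = 3.5e-07) in cytoplasm against nucleus and -4.05 (SE 0.12, adjusted p = 6.5e-08) on chromatin against cytoplasm. END.8910.6 had 302, 284 and 328 CPM in cytoplasm and 0 counts in every chromatin library, at least 1353-fold lower, with 0 set at 3 counts per library. The unlisted END.8910.4 showed the opposite distribution, with 16.9, 21.6 and 18.0 CPM in cytoplasm, 25.7, 63.7 and 53.5 in nucleus, 71.7, 68.8 and 68.2 in nucleoplasm and 223, 219.7 and 212 on chromatin. Its share was 0.354% in cytoplasm and 29.5% on chromatin, and its changes were -1.34 in cytoplasm against nucleus (SE 0.27, adjusted p = 0.0020) and 3.53 on chromatin against cytoplasm (SE 0.29, adjusted p = 3.6e-06).

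In hPSC the same contrast lay between ENST00000546500, annotated as coding, and a pair of minor isoforms. The implied length of ENST00000546500 in hPSC was 1219 bases, against 4121 annotated. Its annotated structure and type may therefore not hold for the isoform counted. ENST00000546500 took 68.3% of the gene in cytoplasm and 64.4% in nucleus and was higher in cytoplasm by 1.39 (SE 0.18, adjusted p = 0.00017). The retained-intron transcript ENST00000551665 (chr12:54285907-54287051, plus strand, 2 exons) had 27.6, 24.8 and 21.6 CPM in cytoplasm, 44.1, 55.7 and 36.6 in nucleus and 63.6, 55.3 and 88.2 on chromatin. It was lower in cytoplasm than nucleus by -0.88 (SE 0.21, adjusted p = 0.0069), and its share rose from 1.11% in cytoplasm to 5.32% in nucleus and 6.74% on chromatin. ENST00000550482, singled out after its values were seen, had 121, 111 and 106 CPM in cytoplasm and 182, 184 and 152 in nucleus, a change of -0.62 (SE 0.13, adjusted p = 0.0035). Its implied length of 2615 bases in hPSC, against 832 annotated, sets the same limit on its annotation. The same transcript was lower in mesoderm cytoplasm by -0.87 (SE 0.17, adjusted p = 0.0071), where its share was 0.913% in cytoplasm, 9.37% in nucleus and 13.7% on chromatin. The main mesoderm isoform, the unlisted MES.10732.3, was higher there by 2.94 (SE 0.45, adjusted p = 0.0023).

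The most abundant HNRNPA1 isoform in ectoderm was ENST00000547566, annotated as a nonsense-mediated decay form. Its mean over the fractions was 1101 TPM, and it took 48.2% of the gene in cytoplasm and 47.2% in nucleus. The coding transcript ENST00000340913 had a mean of 933 TPM and took 44.6% of HNRNPA1 in ectoderm cytoplasm and 44.5% in ectoderm nucleus. Its ectoderm libraries gave 1727, 1852 and 2722 CPM in cytoplasm, 665, 765 and 705 in nucleoplasm and 334, 317 and 313 on chromatin, a fall of 2.71 from cytoplasm to chromatin (SE 0.24, adjusted p = 3.6e-05). In endoderm it took 2.96% of the gene in cytoplasm and 12.6% on chromatin, although its counts were higher in cytoplasm than on chromatin. Unlisted HNRNPA1 isoforms held 87.9% of the gene in endoderm cytoplasm and 89% in mesoderm cytoplasm.

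In endoderm the HNRNPA2B1 isoform ENST00000677574 gave 991, 1029 and 933 CPM in cytoplasm, 127, 329 and 263 in nucleus, 540, 555 and 510 in nucleoplasm and 175, 194 and 203 on chromatin. Cytoplasm lay above all other fractions, and the isoform's share fell from 88.9% in cytoplasm to 59.9% in nucleus and 21.3% on chromatin. It was higher in cytoplasm than nucleus by 2.04 (SE 0.28, adjusted p = 0.00017). ENST00000679021, singled out after its values were seen, took 11.1% of the gene in endoderm cytoplasm, 40.1% in nucleus and 42.7% on chromatin. Its chromatin libraries, at 332, 340 and 398 CPM, were above the cytoplasm ones at 108, 130 and 105, a change of 1.64 (SE 0.33, adjusted p = 0.0019). In hPSC this isoform had 0 counts in cytoplasm, and its chromatin libraries of 123, 70.8 and 221 CPM put it at least 532-fold higher there.

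The transcript ENST00000677906 took a larger share of HNRNPA2B1 on chromatin than in cytoplasm in each cell type: 2.57% against 11.1% in hPSC, 8.15% against 24% in ectoderm, 0 against 36% in endoderm and 16.6% against 47.9% in mesoderm. In mesoderm it gave 175, 169 and 141 CPM in cytoplasm, 274, 365 and 275 in nucleus and 364, 349 and 400.3 on chromatin, changes of -0.91 against nucleus (SE 0.16, adjusted p = 0.0045) and 1.20 on chromatin against cytoplasm (SE 0.16, adjusted p = 0.0012). In ectoderm its counts did not pass on chromatin against cytoplasm (0.19, adjusted p = 0.73). The shares of hPSC and ectoderm were taken out after the values were seen. The single mesoderm nucleoplasm library put this share at 21.2%, nearer cytoplasm than nucleus.

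A pair of HNRNPA2B1 transcripts annotated as retaining an intron, and as having no coding sequence, differed by cell type. ENST00000490912 was lower in mesoderm cytoplasm, with 21.8, 20.3 and 14.4 CPM against 65.8, 68.5 and 64.2 in nucleus and 62.8, 105 and 85.7 on chromatin, changes of -1.81 (SE 0.23, adjusted p = 0.0010) and 2.17 on chromatin against cytoplasm (SE 0.23, adjusted p = 0.00049). In ectoderm the same transcript went the other way, at 34.8, 21.0 and 23.6 CPM in cytoplasm and 0.652, 0.651 and 0 on chromatin, a change of -5.90 (SE 1.02, adjusted p = 0.0031). There it was at 0 counts in all 3 nucleoplasm libraries. ENST00000463181 had 0 counts in ectoderm cytoplasm and nucleus, and 85.9, 82.2 and 78.0 CPM in nucleoplasm and 91.7, 98.6 and 91.3 on chromatin, at least 507-fold higher on chromatin than in cytoplasm. The nonsense-mediated decay form ENST00000360787 was higher in ectoderm cytoplasm than nucleus, by 1.25 (SE 0.19, adjusted p = 0.0016), and lower on chromatin than in cytoplasm, by -3.28 (SE 0.20, adjusted p = 8.3e-06). In hPSC it took 43.3% of the gene in cytoplasm and 29.4% on chromatin and was higher in cytoplasm than nucleus by 1.18 (SE 0.24, adjusted p = 0.0032). The main coding form ENST00000618183 was higher in cytoplasm in hPSC (0.81), ectoderm (0.92) and mesoderm (1.04, adjusted p = 0.014). The mesoderm call was lost without nucleus replicate 3 (0.91, edgeR adjusted p = 0.055) and its value was -0.31 on the TPM scale.

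HNRNPA3 was carried mainly by ENST00000392524 in hPSC, endoderm and mesoderm, which was higher in cytoplasm than nucleus by 1.11 (SE 0.20), 1.93 (SE 0.21) and 1.35 (SE 0.33). The mesoderm call (adjusted p = 0.017) ended without nucleus replicate 1 or 3 or cytoplasm replicate 2 (1.21 to 1.32), and its value was -0.030 on the TPM scale. In hPSC ENST00000678111 gave 9.97, 13.3 and 13.6 CPM in cytoplasm, 14.9, 35.9 and 20.0 in nucleus and 34.5, 31.3 and 34.3 on chromatin. Its share rose from 1.2% in cytoplasm to 4.97% in nucleus and 7.8% on chromatin. The change of -0.94 in cytoplasm against nucleus (SE 0.28, adjusted p = 0.022) was lost without nucleus replicate 2 (-0.51) or cytoplasm replicate 1. In mesoderm the same transcript held 18.5% of the gene in cytoplasm, 33.1% in nucleus and 35.1% on chromatin. The unlisted END.2231.2, singled out after its values were seen, took 2.41% in endoderm cytoplasm and 33.2% on chromatin.

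**Figure D4:**
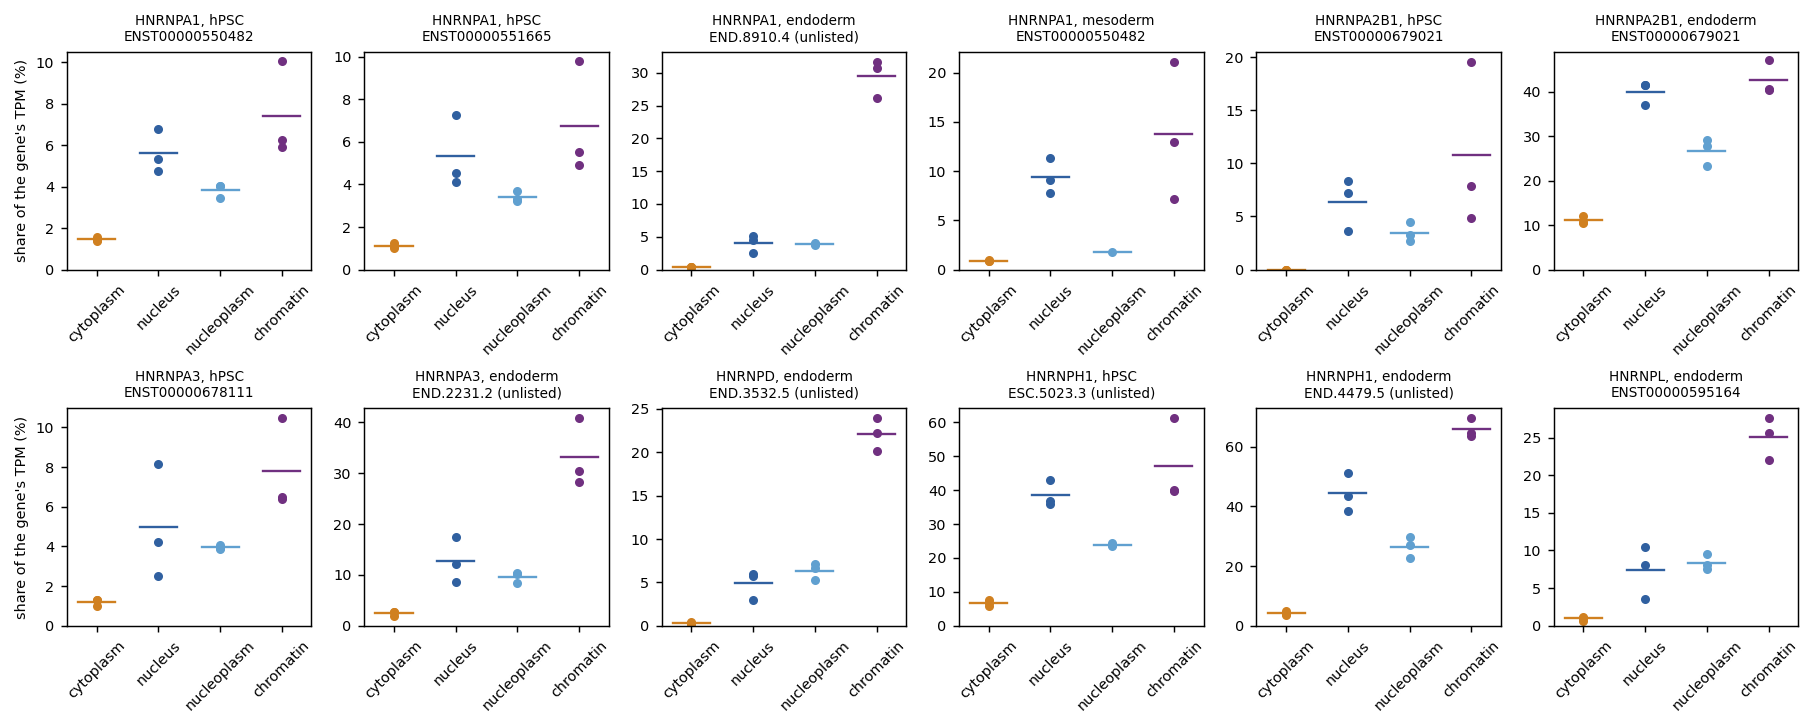
Share of the gene's TPM in percent (y axis) of 12 isoforms by fraction (x axis), 1 dot per library. HNRNPA1 END.8910.4 goes from 0.354% in cytoplasm to 29.5% on chromatin, and HNRNPL ENST00000595164 from 0.968% to 25.1%. In the hPSC panels chromatin replicate 3 lies above the other chromatin libraries.

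HNRNPD showed nuclear forms in endoderm and mesoderm. The unlisted endoderm isoform END.3532.5, with an implied length of 5949 bases, gave 5.86, 9.09 and 7.53 CPM in cytoplasm, 22.8, 52.2 and 46.7 in nucleus, 68.9, 55.1 and 63.2 in nucleoplasm and 122, 111 and 132 on chromatin. As a share of HNRNPD it made up 0.319%, 4.92%, 6.33% and 22.1% in these fractions. It changed by -2.44 in cytoplasm against nucleus (SE 0.29, adjusted p = 6.7e-05) and by 4.02 on chromatin against cytoplasm (SE 0.31, adjusted p = 2.5e-06). In mesoderm the unlisted MES.4227.7 had 25.9, 33.2 and 34.7 CPM in cytoplasm and 101, 121 and 89.6 in nucleus, a change of -1.73 (SE 0.27, adjusted p = 0.0023), and 3.17% of the gene against 21.4%. MES.4228.1, with an implied length of 12970 bases, gave 12.2, 11.7 and 9.18 CPM in cytoplasm and 37.5, 34.2 and 39.5 in nucleus, a change of -1.75 (SE 0.19, adjusted p = 0.00060). Both were higher on mesoderm chromatin than in cytoplasm, by 1.67 and 2.34, and by 1.89 and 2.26 without chromatin replicate 3. MES.4227.6 had at most 0.359 CPM in any other mesoderm library and 120.1, 37.8 and 29.4 on chromatin.

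HNRNPD isoforms were divided by the 57-base and 147-base segments. Differences in these shares between cell types were not tested, and the implied length of ENST00000313899, for one, ran from 1637 to 3070 bases between the cell types' tables. The isoform lacking the 147 bases (ENST00000353341) took 51.4%, 51.8%, 54.4% and 53.8% of the gene in hPSC cytoplasm, nucleus, nucleoplasm and chromatin, and 51.6%, 52.6%, 51.4% and 48.6% in endoderm. In mesoderm it took 43.5% in cytoplasm and 15.6% in nucleus, with a change of 2.49 that did not pass (SE 1.31, adjusted p = 0.18). The isoform lacking the 57 bases (ENST00000352301) took 50% in ectoderm cytoplasm, 47.1% in nucleus, 31.4% in nucleoplasm and 20.8% on chromatin, and it fell by 1.63 from ectoderm cytoplasm to chromatin. Unlisted HNRNPD isoforms rose over the same ectoderm fractions from 19.1% to 21.9%, 48.2% and 62.2%. Among these, ECT.6183.5 and ECT.6183.6, singled out after their values were seen, were higher on chromatin than in cytoplasm by 1.41 and 1.20. In mesoderm the unlisted share on chromatin was 69.9%, 80.8% and 25.4% in the 3 libraries, replicate 3 lying below the others.

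HNRNPC isoforms were divided by the 39-base segment as follows. Those with the 39-base segment made up 65.3%, 61.8%, 63.3% and 60.9% of the gene in hPSC cytoplasm, nucleus, nucleoplasm and chromatin, and 61.6%, 59.7%, 55.2% and 56.6% in ectoderm. The values were 47%, 50.4%, 45.4% and 38.4% in endoderm and 51.8%, 43.9%, 37.7% and 38.6% in mesoderm. No fraction of hPSC or ectoderm was under 55.2%, and the lowest values were those of mesoderm nucleoplasm, from 1 library, and endoderm chromatin. Differences in this share were not tested. The division rests on annotated structures. ENST00000553300, annotated without the segment, had an implied length of 3189 to 3274 bases over the 4 cell types' tables, against 1375 annotated. Its annotated structure may therefore not hold for the isoform counted. The most abundant endoderm form, ENST00000554969, which lacks the segment, gave 395, 379.8 and 415 CPM in cytoplasm and 212, 202 and 198 in nucleus, a change of 0.96 (SE 0.10, adjusted p = 2.9e-05). It fell by 2.60 from cytoplasm to chromatin (SE 0.11, adjusted p = 1.2e-07).

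HNRNPL, level between endoderm cytoplasm and nucleus by TMM as a gene, held a nuclear intron-retaining transcript there. ENST00000595164 (chr19:38836398-38841749, minus strand, 7 exons) gave 2.75, 5.50 and 5.04 CPM in cytoplasm, 15.7, 40.3 and 29.9 in nucleus, 28.6, 24.5 and 20.8 in nucleoplasm and 38.5, 53.0 and 48.2 on chromatin. Its share was 0.968% in cytoplasm, 7.38% in nucleus and 25.1% on chromatin. The changes were -2.69 in cytoplasm against nucleus (SE 0.37, adjusted p = 0.00017) and 3.39 on chromatin against cytoplasm (SE 0.38, adjusted p = 3.3e-05). In ectoderm the unlisted ECT.21849.3 rose on chromatin, with 18.6, 19.2 and 22.4 CPM in cytoplasm and 64.0, 63.5 and 62.0 on chromatin, a change of 1.65 (SE 0.24, adjusted p = 0.00058). The main coding form ENST00000221419 took 96.4% of HNRNPL in ectoderm cytoplasm and 80.9% on chromatin, and 95.3% and 83.1% in mesoderm. In hPSC its share was lower in cytoplasm (54.4%) than in nucleus (75.7%), where ENST00000600873, singled out after its values were seen, made up 37% and 17.1%.

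In mesoderm the HNRNPU retained-intron transcript ENST00000366527 (chr1:244840638-244854748, minus strand), singled out after its values were seen, gave 47.2, 46.0 and 44.0 CPM in cytoplasm, 101, 108 and 102 in nucleus and 147, 175 and 80.7 on chromatin. It was lower in cytoplasm than nucleus by -1.18 (SE 0.25, adjusted p = 0.0097). The main coding HNRNPU form of hPSC, ENST00000440865, was higher in cytoplasm there by 0.71 (SE 0.15, adjusted p = 0.0038). In mesoderm its change was 0.05, and -1.31 on the TPM scale. In endoderm cytoplasm another coding form, ENST00000444376, took 65.5% of the gene. In ectoderm ENST00000440865 fell by 1.53 from cytoplasm to chromatin (SE 0.11, adjusted p = 1.4e-05), while the unlisted ECT.2216.1, singled out after its values were seen, took 25.7% of HNRNPU in cytoplasm and 50.8% on chromatin. The main HNRNPK isoform in hPSC, ENST00000360384, was higher in cytoplasm by 0.73 (SE 0.16, adjusted p = 0.0046). In endoderm HNRNPK ENST00000376281 took 33.1% of the gene in cytoplasm and 15.1% on chromatin, a fall of 3.06 in its counts (SE 0.43, adjusted p = 0.00018).

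On chromatin against cytoplasm, 6 member isoforms were higher and 22 lower in hPSC, 7 and 24 in ectoderm, 10 and 25 in endoderm and 8 and 15 in mesoderm. All isoforms tested gave 38.8%, 28%, 49.7% and 40.4% called, with 22.1%, 12.2%, 25.3% and 20.7% higher and 16.7%, 15.9%, 24.4% and 19.8% lower. On the TPM scale the splits were 12 and 3, 10 and 9, 9 and 23, and 17 and 2, beside 91.5%, 92.7%, 67.8% and 91.2% of all called isoforms higher and medians of 0.65, 0.62, 0.40 and 0.80 over all isoforms. With library totals they were 8 and 15, 7 and 19, 10 and 24, and 11 and 11, beside 67.8%, 65.3%, 54.7% and 71.9% of all called isoforms higher. Of the protein-coding isoforms, 1 was higher on chromatin and 14 lower in hPSC, 0 and 16 in ectoderm, 0 and 19 in endoderm, and 1 and 9 in mesoderm. The unlisted ones gave 1 and 4 in hPSC, 4 and 1 in ectoderm, 7 and 4 in endoderm, and 4 and 3 in mesoderm. Tested were 24, 24, 22 and 23 protein-coding and 7, 7, 13 and 12 unlisted isoforms. As above, the classes were not compared over all isoforms, so their split may not be particular to the members. Without mesoderm chromatin replicate 3, 30 isoforms passed in mesoderm in place of 23. Chromatin against nucleoplasm compares no cytoplasm or nucleus library, but these libraries entered the same fit, with its filter, scaling and estimate of spread. In that comparison 0 were higher and 12 lower in hPSC, 1 and 17 in ectoderm and 6 and 21 in endoderm. Over all isoforms 9.75%, 13.9% and 29.9% were called, 6.08%, 4.51% and 11.8% higher and 3.67%, 9.37% and 18.1% lower. On the TPM scale these splits were 7 and 2, 6 and 2, and 9 and 11, beside 96.5%, 95.6% and 79.6% of all called isoforms higher. With library totals they were 2 and 3, 2 and 8, and 10 and 10, beside 90.6%, 69.1% and 76.0% of all called isoforms higher. The hPSC calls rest on the nucleoplasm libraries: 1 isoform was called without nucleoplasm replicate 1, 0 without replicate 2 and 5 without replicate 3. Of the endoderm isoforms higher on chromatin than in nucleoplasm, HNRNPH1 END.4479.5 and HNRNPA1 END.8910.4 changed by 1.60 and 1.65. HNRNPA2B1 ENST00000677906 was at 0 counts in endoderm nucleoplasm and at least 1136-fold higher on chromatin.

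The usage test asks whether an isoform's change differs from that of its gene. Only isoforms called both by edgeR's diffSpliceDGE and by an added fit with the gene's summed count as offset are named. By both fits, 2 isoforms took a larger and 5 a smaller part of their gene in hPSC cytoplasm than nucleus, 0 and 0 in ectoderm, 1 and 7 in endoderm and 0 and 1 in mesoderm, beside 2%, 0.121%, 3.7% and 1.87% of all isoforms called (0.593%, 0.104%, 0.435% and 0.173% larger, 1.41%, 0.0173%, 3.26% and 1.7% smaller). By diffSpliceDGE alone the counts were 3 and 5, 1 and 0, 2 and 7, and 0 and 2, beside 2.62%, 0.373%, 4.57% and 2.79% of all isoforms called, 0.934%, 0.248%, 0.907% and 0.53% of them larger and 1.69%, 0.124%, 3.67% and 2.26% smaller as shares of all tested. The larger parts in hPSC were HNRNPH1 ENST00000393432 and HNRNPA2B1 ENST00000679123, the latter at 54.2, 37.1 and 31.1 CPM in cytoplasm and 4.41, 1.02 and 0 in nucleus. The smaller parts in hPSC were HNRNPA1 ENST00000550482 and ENST00000551665, HNRNPA2B1 ENST00000679021, HNRNPA3 ENST00000678111 and HNRNPH1 ESC.5023.3. In endoderm HNRNPH1 ENST00000393432 was again the larger part. The smaller ones were HNRNPA1 ENST00000340913 and END.8910.4, HNRNPA2B1 ENST00000679021, HNRNPA3 END.2231.2, HNRNPD END.3532.5, HNRNPH1 END.4479.5 and HNRNPL ENST00000595164. In mesoderm it was HNRNPA1 ENST00000550482.

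The implied length of an isoform, the length at which its counts and TPM fit together, was compared with the call in cytoplasm against nucleus over the 4 cell types. The 19 isoforms called lower in cytoplasm had a median of 3077 bases (739 to 12970), the 57 called higher 2149 (1060 to 6190) and the 103 not called 2611 (1061 to 19155). The ranges overlap over most of their extent, isoforms of 1 gene share exons, and the same transcript can enter once per cell type, so these medians are a description. The measure itself is approximate: of 107 isoforms with both lengths, 92 had a ratio of implied to annotated length between 0.63 and 2.09. Those limits are the lowest and highest ends of the central 90% over the 4 cell types, among listed transcripts of 1000 to 8000 bases. The implied lengths of 6 of 38 transcripts found in several tables differed by more than 1.5-fold between them.

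**Figure D5:**
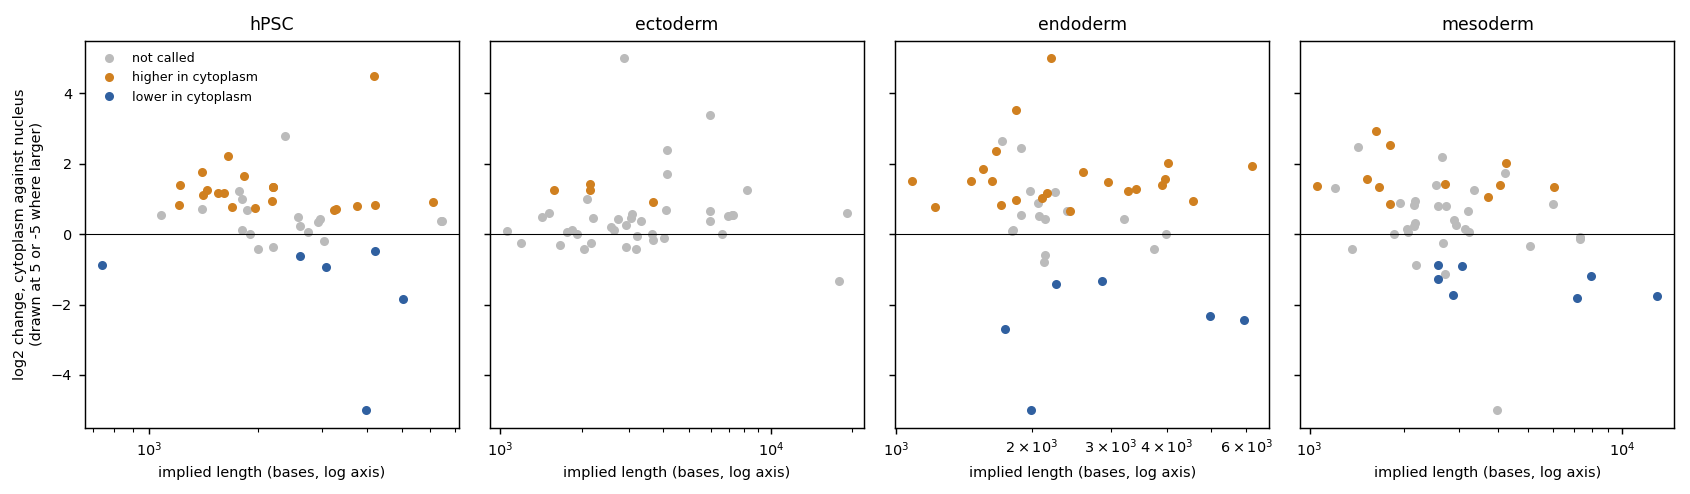
Implied isoform length in bases (x axis, log scale) against log2 change in cytoplasm against nucleus (y axis, drawn at 5 or -5 where larger), 1 point per member isoform and 1 panel per cell type, coloured by call. Points called lower are spread from 739 to 12970 bases, and those called higher from 1060 to 6190.

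The last question is whether the genes differ between cell types. In cytoplasm against hPSC, 0 members were higher and 5 lower in ectoderm, 1 and 3 in endoderm and 0 and 7 in mesoderm, beside 76%, 58.1% and 68.1% of all genes called. As shares of all genes tested, 38%, 29.5% and 34.6% were higher and 37.9%, 28.6% and 33.4% lower. HNRNPD fell in all 3, by 1.25 in ectoderm (SE 0.11, adjusted p = 7.6e-08), 0.81 in mesoderm (adjusted p = 1.1e-05) and 0.29 in endoderm (adjusted p = 0.033), all by edgeR. The endoderm call was lost without endoderm cytoplasm replicate 1 or 2. HNRNPA2B1 fell by 0.61, 0.40 and 0.69 in ectoderm, endoderm and mesoderm. HNRNPH1 fell by 0.50 in ectoderm and 0.51 in mesoderm, and HNRNPU by 0.68 and 0.38. HNRNPC fell by 0.71 in mesoderm and by 0.39 in endoderm, the latter turning to 0.094 on the TPM scale. HNRNPL fell by 0.68 and HNRNPA0 by 0.33 in mesoderm. HNRNPA0 also fell by 0.29 in ectoderm, a call lost without ectoderm cytoplasm replicate 1 and at 0.072 on the TPM scale. HNRNPK was the only member higher, by 0.29 in endoderm (SE 0.10, adjusted p = 0.021), a call lost without hPSC cytoplasm replicate 1 or 2 or endoderm cytoplasm replicate 1. HNRNPA1 and HNRNPA3 passed in none of the 3. Since each cell type has its own assembly, the set of isoforms that enter a gene's sum changes with the cell type.

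Whether the division between cytoplasm and nucleus itself differed from hPSC was tested with an interaction term. In ectoderm, 1 member had a larger and 4 a smaller cytoplasmic excess, in endoderm 4 and 0, and in mesoderm 2 and 2, beside 51.9%, 38% and 25.6% of all genes called. As shares of all genes tested, 27.4%, 19.7% and 18.8% had a larger excess and 24.6%, 18.3% and 6.87% a smaller one. HNRNPA1 differed in all 3, by -1.03 in ectoderm (SE 0.25, adjusted p = 0.0018), 0.72 in endoderm (SE 0.25, adjusted p = 0.028) and 0.98 in mesoderm (SE 0.25, adjusted p = 0.0065), all by edgeR. HNRNPH1 differed by 1.32 in ectoderm (SE 0.38, adjusted p = 0.0068). HNRNPD and HNRNPU had smaller excesses in mesoderm, by -0.80 and -0.84. On the TPM scale the splits were 1 and 0, 9 and 0, and 0 and 7, and the mesoderm value of HNRNPA0 turned from 0.42 to -0.38. Of all genes called on that scale, 82.2%, 94.6% and 5.26% were higher. With library totals the splits were 1 and 3, 8 and 0, and 0 and 2, beside 56.6%, 90.0% and 36.8% of all called genes higher. In endoderm the 4 calls rest on few libraries: 0 members passed without endoderm nucleus replicate 1, and 1 without hPSC nucleus replicate 1 or endoderm cytoplasm replicate 2. The ectoderm values use the cytoplasm and nucleus libraries whose control RNAs went against their labels.

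For each member the gene outside the list with the most similar level over the 46 libraries was found by Pearson's r of log2(CPM + 1), a description over libraries that share fractions and cell types. HNRNPA1 was nearest to H3-3B (r = 0.980), HNRNPA3 to HNRNPH3 (0.971), HNRNPA0 to NGRN (0.970) and HNRNPC to YWHAE (0.970). HNRNPA2B1 was nearest to XPOT (0.958), HNRNPK to CDC42 (0.954), HNRNPU to SYNCRIP (0.928), HNRNPD to HSPA14 (0.922), HNRNPH1 to PAXIP1 (0.901) and HNRNPL to STIP1 (0.885). HNRNPH3 and SYNCRIP are themselves hnRNP family genes.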

How the data were processed

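Isoform counts are RSEM-type estimated counts (expected counts) and TPM as deposited, from STAR, RSEM and hg38 per the submitters' processing notes, without versions. Counts were rounded. Gene sums add all isoforms of a symbol. The 4 own-assembly tables give the main values, and a combined assembly holding the ectoderm libraries an alternative. The column code for nucleus was read by elimination, and 1 column of per-sample values was not used. In each cell type all 4 fractions entered 1 fit in edgeR 4.0.16 (R 4.3.3) with TMM, filterByExpr with a minimum count of 10, and Benjamini-Hochberg adjustment at 0.05 over all features. Alternatives were DESeq2 1.42.0, limma 3.58.1 on log2(TPM + 1), library totals, no filter, a replicate block and leaving out each library. Tests were tried on simulated data: diffSpliceDGE calls of changed usage were mostly false there, and those of the offset fit, added after seeing the data, mostly true. Named isoforms were the most abundant of each gene, those with the largest share difference, and up to 3 rises and 3 falls per comparison with at least 10 CPM and no overlap. Exons and types came from GENCODE 29. The members, lists and tests were chosen with earlier results of these data known. Mesoderm nucleoplasm, with 1 library, was described only. No 2 libraries of a group were identical over 45 pairs.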

Additional observations from a re-analysis of the deposited data

Results flagged for a closer look

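The following gene sums differed between a differentiated cell type and hPSC in their log2 change of cytoplasm against nucleus by edgeR's interaction test, which is what marked them. In ectoderm the differences were -0.71 for HNRNPA0, -1.03 for HNRNPA1, -0.76 for HNRNPC, -0.54 for HNRNPD and 1.32 for HNRNPH1. In endoderm they were 0.72 for HNRNPA1, 0.79 for HNRNPA3, 0.47 for HNRNPK and 0.72 for HNRNPU. In mesoderm they were 0.42 for HNRNPA0, 0.98 for HNRNPA1, -0.80 for HNRNPD and -0.84 for HNRNPU. The ectoderm values rest on libraries whose nuclear control RNAs were higher in cytoplasm than in nucleus. The part of that in these differences was not tested.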

How the results depend on the processing

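Results changed most with the scaling. Over all features the median log2 change lay between -0.10 and 0.16 with TMM, between -0.39 and 0.71 with library totals and between -0.82 and 0.85 on the TPM scale. On the TPM scale 48 single values of the members reversed, and 38 of these kept their TMM direction once the median of all features was taken off. With TPM the member isoforms called were 15 in hPSC and 19 in ectoderm for chromatin against cytoplasm, 8 in ectoderm for cytoplasm against nucleus, and 8 in ectoderm for chromatin against nucleoplasm. Over all isoforms, in the same order, TPM called 15347 of 28897, 22373 of 41708, 3545 of 41708 and 15936 of 41708. The member genes called were 5 (cytoplasm against nucleus) and 3 (chromatin against cytoplasm) in hPSC, 5 in ectoderm chromatin, 4 in mesoderm against hPSC, and 1, 9 and 7 for the interactions of ectoderm, endoderm and mesoderm. Over all genes these were 8136 and 10156 of 14131, 11340 of 15937, 6128 of 10672, and 4660, 4237 and 4547 of 10680. With library totals 5 member isoforms were called in hPSC and 10 in ectoderm for chromatin against nucleoplasm, 11 in ectoderm for cytoplasm against nucleus, and 8 and 2 member genes for the interactions of endoderm and mesoderm. Over all features these were 3825 of 28897, 4509 of 41708 and 5821 of 41708 isoforms, and 4241 and 2284 of 10680 genes. With DESeq2 the counts were 20 for hPSC chromatin against nucleoplasm, 15 for ectoderm cytoplasm against nucleus and 8 for endoderm against hPSC. Over all features DESeq2 called 5345 of 28711 isoforms, 10812 of 41262 isoforms and 6483 of 10669 genes there. The main fit called 2818 of 28897, 5694 of 41708 and 6203 of 10672. The combined assembly gave 11 member isoforms for ectoderm cytoplasm against nucleus. Usage called 13, 2, 15 and 7 members with limma voom in hPSC, ectoderm, endoderm and mesoderm, and with the gene sum as offset 0 in ectoderm and 7 in mesoderm. No share over all isoforms stands beside the counts of the combined assembly, limma voom and the offset fit. Those counts are therefore not a result about the members. The cause of these differences was not tested.

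Reversed on the TPM scale, for chromatin against cytoplasm, were the hPSC isoforms ESC.14640.2 of HNRNPL (0.72), ESC.1665.3 of HNRNPU (0.39), ESC.4695.1 of HNRNPA0 (0.25) and ESC.6070.4 of HNRNPA2B1 (0.19). For the hPSC gene sums the values were 0.25 for HNRNPA0, 0.30 for HNRNPA2B1, 0.13 for HNRNPK, 0.57 for HNRNPL and 0.56 for HNRNPU. In ectoderm they were 0.14 and 0.61 for ECT.7893.1 and ECT.7893.2 of HNRNPH1, and for gene sums 0.13 for HNRNPA3, 0.45 for HNRNPH1, 0.23 for HNRNPL and 0.68 for HNRNPU. In mesoderm they were 0.60 for MES.15492.1 of HNRNPL, 0.67 and 1.51 for MES.5423.1 and MES.5423.2 of HNRNPH1 and 0.43 for MES.6500.4 of HNRNPA2B1, and for gene sums 0.44 for HNRNPA3, 0.018 for HNRNPK and 0.80 for HNRNPL. For chromatin against nucleoplasm they were, in ectoderm, 0.022 for ECT.11962.1 of HNRNPK, 0.15 for ECT.21849.1 of HNRNPL, 0.069 for ECT.2217.4 of HNRNPU, 0.075 for ECT.3706.1 of HNRNPA3 and 0.28 for ECT.7487.1 of HNRNPA0. In endoderm they were 0.011 for END.13141.1 of HNRNPL, 0.18 for END.2231.1 of HNRNPA3 and 0.053 for END.4198.1 of HNRNPA0. For mesoderm cytoplasm against nucleus they were -0.51 for MES.11610.4 of HNRNPC, -1.23 for MES.15492.1 of HNRNPL, -1.31 for MES.1657.3 of HNRNPU, -0.030 for MES.2574.2 of HNRNPA3, -1.07 and -1.13 for MES.5423.1 and MES.5423.2 of HNRNPH1 and -0.31 for MES.6500.4 of HNRNPA2B1. The gene sums there were -0.90 for HNRNPA2B1, -0.40 for HNRNPA3, -0.31 for HNRNPC and -1.12 for HNRNPH1. Between cell types they were 0.072 for HNRNPA0 in ectoderm and 0.094 for HNRNPC in endoderm cytoplasm. The interactions were 0.0014 for HNRNPD in ectoderm, 0.79 for HNRNPD in endoderm, and -0.38 for HNRNPA0, -0.56 for HNRNPC and -0.76 for HNRNPK in mesoderm. With library totals 4 values reversed: HNRNPK in ectoderm (0.32) and HNRNPL in endoderm (0.69) for cytoplasm against nucleus, END.2231.1 of HNRNPA3 (0.12), and MES.5423.2 of HNRNPH1 (0.57). In the combined assembly HNRNPH1 reversed to 0.32 for ectoderm chromatin.

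Leaving out 1 library at a time gave these counts of member isoforms, lowest to highest. For cytoplasm against nucleus they were 22 to 27 in hPSC, 3 to 7 in ectoderm (7 without nucleus replicate 3), 22 to 26 in endoderm and 11 to 18 in mesoderm (11 without nucleus replicate 3). For chromatin against cytoplasm they were 22 to 26, 28 to 32, 32 to 36 and 20 to 30. For chromatin against nucleoplasm they were 0 to 12 in hPSC, where chromatin replicate 3 also mattered (7 without it), 14 to 20 in ectoderm and 20 to 24 in endoderm. For usage they were 6 to 9, 0 to 2, 6 to 9 and 1 to 2; in ectoderm 0 without nucleus replicate 2 or cytoplasm replicate 3 and 2 without nucleus replicate 1, and in mesoderm 1 without nucleus replicate 1 or 3 or cytoplasm replicate 2 or 3. Gene sums gave 7 to 9, 4 to 7, 8 to 9 and 3 to 4 for cytoplasm against nucleus, and 8 to 9, 8 to 9, 9 to 9 and 5 to 6 for chromatin against cytoplasm. Against hPSC they gave 4 to 6 in ectoderm, 2 to 7 in endoderm (7 without hPSC cytoplasm replicate 1, 2 without endoderm cytoplasm replicate 1) and 7 to 8 in mesoderm. The interactions gave 4 to 5, 0 to 4 and 3 to 4, with 2 in endoderm without hPSC nucleus replicate 2 or hPSC cytoplasm replicate 1. Of 1020 such values of single gene sums 56 lost and 18 gained a call, and of 1356 of isoforms named by the rule 120 lost and 10 gained one, with 0 reversed. Isoforms singled out after their values were seen were not run under the alternatives.

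The replicate numbers showed no clear pairing of the libraries. Over 33 comparisons, which reuse libraries, correlations between same-numbered libraries ran from -0.55 to 0.39, 12 of them over 0.1. In 14 of the 33 a library correlated best with its own number. Whether libraries of the same number came from the same culture cannot be told from these values. With a replicate block the member isoforms called for cytoplasm against nucleus were 26, 6, 26 and 17, those for chromatin against cytoplasm 29, 31, 33 and 23, and those for chromatin against nucleoplasm 10, 18 and 25 in hPSC, ectoderm and endoderm. Over all isoforms the block fit tested 28897, 41708, 26389 and 31015, the mesoderm fit leaving out its nucleoplasm library. It called 10842, 4398, 10237 and 8714 for cytoplasm against nucleus. For chromatin against cytoplasm it called 10511, 10509, 12246 and 11969, and for chromatin against nucleoplasm 1971, 4584 and 6983. Depth limits single isoforms near 0 more than gene sums, since 3 counts are worth up to 0.461 CPM.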
